A study of Homo sapiens with 6 samples.

Results

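FN1, TNC, THBS1, FBLN1, LUM and SPARC, 6 genes of secreted extracellular matrix glycoproteins, were followed in a tamoxifen-resistant breast cancer subline and its parent. They were taken by gene symbol, and all 6 stood among the 20503 genes of the count table. The comparison addressed which genes separate the resistant subline from its parent. The tested cells were T47D-TR, a subline derived from T47D that was kept in medium with 1 µM 4-hydroxytamoxifen, the active metabolite of tamoxifen. The parental cells were T47D, a human breast cancer line that the labels call ER-positive, grown without the drug in the same serum-supplemented DMEM. Poly(A)-selected RNA of each was sequenced in 3 libraries, 6 in all. Resistance and the presence of the drug changed together, so their parts cannot be told apart. Separate cultures are not stated in the labels, so the spread and the p-values describe these libraries only and may be technical. T47D-TR is 1 derived subline, and the labels do not say whether it was cloned.

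Matrix glycoproteins are secreted or shed by cells and assembled around them, where they bind one another, collagen, growth factors and integrin receptors. Fibronectin is an adhesive scaffold protein. Tenascin-C, thrombospondin-1 and SPARC are matricellular proteins, which modulate adhesion more than they build structure, and fibulin-1 joins basement membranes and elastic fibres. Lumican is a small leucine-rich proteoglycan that binds collagen fibrils. In breast tissue much of this matrix is made by stromal fibroblasts, and carcinoma cells can make part of it.

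The libraries held 17199315 to 19867230 counts, so that 3 counts, taken as the limit of detection in a library, stood for 0.153 to 0.178 CPM (counts scaled to a common effective library size). The labelled cell type was checked against its markers. ESR1, which encodes oestrogen receptor alpha, had 2, 4 and 3 counts in T47D-TR and 3, 0 and 2 counts in T47D, at or near the limit of detection in a line labelled ER-positive. Of the 14 luminal markers listed, 11 were in the table, which holds genes down to a total of 1 count. PGR, the progesterone receptor gene, SPDEF and TFF1 were not in it. The summed level of the 11 was 2583 to 2975 CPM in T47D-TR and 2111 to 2195 CPM in T47D, most of it from the simple epithelial keratin genes KRT8 and KRT18. CDH1, the E-cadherin gene, averaged 5.5 ± 2.4 CPM in T47D-TR and 2.12 ± 0.742 CPM in T47D, whereas the vimentin gene VIM averaged 1297 ± 22.4 and 770 ± 10.9 CPM (SD, n = 3 each, as for every mean that follows). The other luminal markers went different ways. GATA3 averaged 0.625 CPM in T47D-TR and 1.23 CPM in T47D, EPCAM 14.7 and 38.6 CPM, and ERBB3 4.09 and 6.73 CPM. Higher in T47D-TR than in T47D were KRT19 (112 and 27.8 CPM), FOXA1 (10.7 and 5.63 CPM) and XBP1 (156 and 61 CPM). AGR2 had 4, 12 and 1 counts in T47D-TR and 0 in every T47D library. The picture was thus mixed, with KRT8, KRT18, KRT19, FOXA1 and XBP1 expressed in both groups. The near absence of ESR1, with little GATA3 and CDH1 and high VIM, goes against the markers of the labelled line in both groups. T47D-TR and T47D therefore stand below for the libraries so labelled, and the identity of the cells was not tested. T47D-TR replicate 3 stood apart: its chi-square statistic against the other T47D-TR libraries was 8.36 and 9.58 per gene, while those differed from each other by 2.79 and the T47D pairs by 1.83 to 2.24.

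The genes were chosen by their measured change between T47D-TR and T47D in this same table. Their levels and fold changes are therefore given as a description, without a test. Of the 6 genes, 5 passed the filter on low counts and SPARC did not. All 5 were among the genes that edgeR's quasi-likelihood test called (adjusted p under 0.05, Benjamini-Hochberg), 3 of them higher and 2 lower in T47D-TR, where 63.0% of the 15961 tested genes were called (32.5% higher, 30.5% lower). Nothing is read from that count. The log2 fold changes (T47D-TR over T47D) of the 5 ran from -5.75 for LUM to 3.41 for FN1, with a median of 1.48. That of all tested genes was 0.002, and nothing is read from the difference, because the genes were chosen by their change. LUM passed the filter through its T47D counts alone. The groups did not overlap in CPM for any of the 5, as for 68.3% of tested genes.

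**Figure D1:**
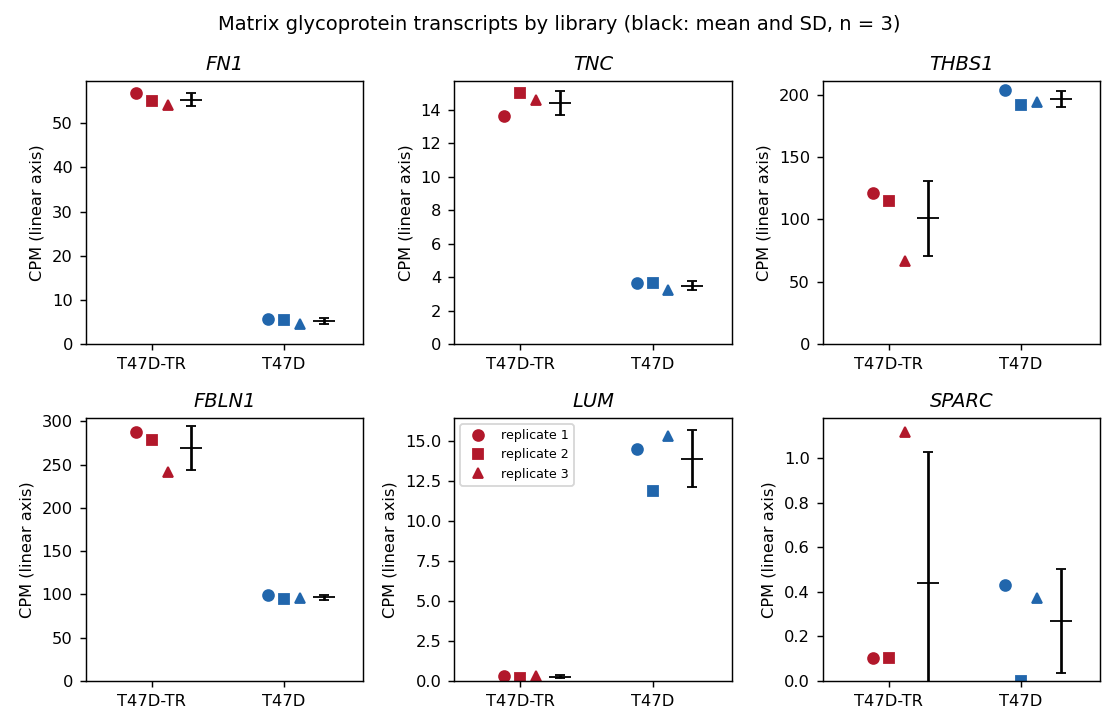
CPM of the 6 genes in each library on linear axes that start at 0, with T47D-TR in red and T47D in blue, the marker shape giving the replicate number and black bars the mean and SD of 3 libraries (the SPARC bar is cut at 0). FN1, TNC and FBLN1 lay higher in T47D-TR, THBS1 and LUM lay lower, and SPARC overlapped, with T47D-TR replicate 3 highest at 1.12 CPM.

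FN1 encodes fibronectin, the dimeric glycoprotein that cells assemble into fibrils through integrin receptors. The gene lies on chromosome 2 (215360440 to 215436172, minus strand, GRCh38, GENCODE 29), and its longest coding transcript has 46 exons. FN1 had 1097, 1080 and 912 counts in T47D-TR and 106, 105 and 84 counts in T47D. In CPM these were 56.9, 55.1 and 54.0 in T47D-TR and 5.71, 5.37 and 4.50 in T47D, so every T47D-TR library lay far above every T47D library. The means were 55.3 ± 1.45 CPM in T47D-TR and 5.19 ± 0.622 CPM in T47D, a log2 fold change of 3.41 ± 0.10 (SE). Among tested genes, 1.40% had a larger change in either direction. The T47D-TR libraries were close together, with a coefficient of variation of 2.62%, and replicate 3 differed from the mean of the others by only -0.05 on the log2 scale. 

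The promoters of FN1, which was higher in T47D-TR, and THBS1, which was lower, are shown from the RefSeq table (GRCh38.p14), because their windows held the rarest of the motifs matched. Each line gives the 250 bases before the annotated start, 5′ to 3′ along the gene, with motif matches in capitals. The FN1 window is chr2:215436069-215436318 (minus strand), inside which GENCODE 29 places the outermost start of the gene, and the THBS1 window is chr15:39580829-39581078 (plus strand).
FN1: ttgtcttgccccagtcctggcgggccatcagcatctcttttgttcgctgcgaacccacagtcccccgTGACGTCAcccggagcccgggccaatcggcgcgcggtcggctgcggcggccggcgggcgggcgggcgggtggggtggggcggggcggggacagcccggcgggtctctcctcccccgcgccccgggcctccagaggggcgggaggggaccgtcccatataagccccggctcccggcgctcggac
THBS1: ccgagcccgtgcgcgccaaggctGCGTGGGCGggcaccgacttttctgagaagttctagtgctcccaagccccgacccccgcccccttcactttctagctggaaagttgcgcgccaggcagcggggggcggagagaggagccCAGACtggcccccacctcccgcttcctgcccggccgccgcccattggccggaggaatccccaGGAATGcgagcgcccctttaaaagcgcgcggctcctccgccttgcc

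Motifs were searched on both strands in the windows of the 5 genes with an entry (FN1, TNC, THBS1, FBLN1 and SPARC) and in 27305 promoters of the same length. The FN1 window held TGACGTCA, the palindromic cAMP response element, at bases -183 to -176 from the start, a motif found in 1.77% of all windows. The THBS1 window held a match to the EGR motif GCGTGGGCG, searched with any base allowed for its T, at -227 to -219 (8.25% of windows), 1 to CAGAC, the SMAD box, at -108 to -104 (37.8%), and 1 to GGAATG, the TEAD motif, at -46 to -41 (11.9%). These matches do not overlap. The windows of TNC and FBLN1 each held 1 SMAD box, and that of SPARC held 1 TEAD motif. None of the 5 windows held TGANTCA (AP-1, 6.60% of windows), TATAAA (11.1%) or the SRF CArG box (1.14%). Only the exact TATAAA was searched, so similar strings were not counted, such as tatataag in the TNC window and catataag in the FN1 window. The FN1 and THBS1 windows were 76.4% and 69.6% G or C, against a median of 58.0%. These letters describe the reference sequence, and no binding was measured.

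FBLN1 encodes fibulin-1, a calcium-binding glycoprotein of basement membranes and elastic fibres that binds fibronectin. The gene lies on chromosome 22 (45502238 to 45601135, plus strand), with 11 annotated coding transcripts that the counts do not separate. FBLN1 had 288, 279 and 241 CPM in T47D-TR and 99.6, 94.6 and 95.5 CPM in T47D, the lowest T47D-TR value being that of replicate 3. The means were 269 ± 24.9 CPM in T47D-TR and 96.5 ± 2.69 CPM in T47D, a log2 fold change of 1.48 ± 0.08, and 7.61% of tested genes had a larger change. FBLN1 was the most abundant of the 6 genes by count in T47D-TR, where it made up 60.0% to 63.9% of their summed CPM, against 30.3% to 30.7% in T47D.

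TNC encodes tenascin-C, a hexameric matricellular protein that is sparse in most adult tissues and found in tumour matrix. The gene lies on chromosome 9 (115019578 to 115118257, minus strand). TNC had 262, 295 and 247 counts in T47D-TR and 68, 71 and 60 counts in T47D. These stood for 13.6, 15 and 14.6 CPM in T47D-TR and 3.66, 3.63 and 3.21 CPM in T47D, without overlap and with little spread in either group. The means were 14.4 ± 0.752 CPM in T47D-TR and 3.50 ± 0.249 CPM in T47D, a log2 fold change of 2.04 ± 0.07 that 4.25% of tested genes exceeded. With voom and quantile normalization, which moved the median of all tested genes by -0.11, it was 1.86.

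THBS1 encodes thrombospondin-1, a trimeric matricellular protein that binds CD47 and CD36 and can activate latent TGF-beta. The gene lies on chromosome 15 (39581079 to 39599466, plus strand). THBS1 had 2332, 2248 and 1119 counts in T47D-TR and 3797, 3764 and 3611 counts in T47D. In CPM these were 121, 115 and 66.3 in T47D-TR and 204, 192 and 194 in T47D, so the T47D-TR libraries lay lower throughout, and replicate 3 lay furthest down. The means were 101 ± 29.9 CPM in T47D-TR and 197 ± 6.62 CPM in T47D, with a log2 fold change of -0.96 ± 0.28, exceeded in size by 14.9% of tested genes. Replicate 3 differed from the mean of the other T47D-TR libraries by -0.83 on the log2 scale, a distance that 3.33% of tested genes reached, and without it the fold change was -0.74. THBS1 overlaps FSIP1 on the opposite strand, which had 15, 17 and 23 counts in T47D-TR and 11, 13 and 17 in T47D. The noncoding genes AC037198.1 (same strand) and AC037198.2 (opposite strand) also overlap THBS1 and were not in the table. Whether the counting used strand is not stated in these sources, and the part of these overlaps in the THBS1 counts was not tested.

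Chosen after their values were seen, the genes of the matricellular proteins CCN1 and CCN2, listed in the table as CYR61 and CTGF, showed the same library as the lowest. CYR61 had 1795, 2495 and 570 counts in T47D-TR and 2281, 2701 and 2536 in T47D, and CTGF had 461, 603 and 102 in T47D-TR and 341, 364 and 356 in T47D. Neither was called between the groups (edgeR adjusted p = 0.08 for CYR61 and 0.76 for CTGF). Their part in the THBS1 value of replicate 3 was not tested.

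LUM encodes lumican, a small leucine-rich proteoglycan that binds collagen and regulates fibril spacing. The gene lies on chromosome 12 (91102629 to 91111831, minus strand) and has 1 annotated coding transcript of 3 exons. LUM had 6, 3 and 5 counts in T47D-TR and 269, 232 and 286 counts in T47D. The T47D-TR libraries were thus at or little above the 3-count level, at 0.311, 0.153 and 0.296 CPM, while the T47D libraries lay at 14.5, 11.9 and 15.3 CPM. The log2 fold change was -5.75 ± 0.25, and 0.263% of tested genes had a larger change. Over the 3 libraries of a group, 14 counts in T47D-TR and 787 in T47D gave a ratio of 0.0181 (95% interval 0.00985 to 0.0306 from the exact Clopper-Pearson interval of the counts). Such intervals cover the counting error of the pooled counts only and leave out the spread between libraries. Because PCR copies of 1 molecule are counted separately, they may be too narrow even for that. These are bulk cultures, in which fewer cells with a transcript and less of it per cell cannot be told apart. Related proteoglycan genes differed in pattern. DCN, the decorin gene that neighbours LUM in the same cluster, had 4, 0 and 19 counts in T47D-TR and 0 in all 3 T47D libraries, while BGN, the biglycan gene, fell to 0.324 ± 0.0602 CPM in T47D-TR, against 0.987 ± 0.413 CPM in T47D (log2 fold change -1.59, edgeR adjusted p = 0.0047).

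SPARC encodes osteonectin, a collagen-binding matricellular protein. The gene lies on chromosome 5 (151661096 to 151687165, minus strand). SPARC had 2, 2 and 19 counts in T47D-TR and 8, 0 and 7 counts in T47D, too few to be tested. Replicate 3 held 19 of the 23 counts of T47D-TR, and without it the log2 ratio of mean CPM turned to -1.38, where all 6 libraries gave 0.72. The groups overlapped, and the SD was above the mean in T47D-TR (0.444 ± 0.590 CPM) and close to it in T47D (0.269 ± 0.234 CPM), so no direction is given for SPARC.

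Fibroblast markers were set beside LUM and SPARC, since both are abundant in stromal fibroblasts. Of 10 listed markers, 8 were in the table, with a summed level of 22.7 to 29.7 CPM in T47D-TR and 24.0 to 26.2 CPM in T47D. COL1A1, a fibrillar collagen gene, made up most of it at 17.4 ± 1.07 CPM in T47D-TR and 18.2 ± 1.04 CPM in T47D (edgeR adjusted p = 0.55). PDGFRB, a pericyte and fibroblast receptor gene, was lower in T47D-TR, as LUM was, with 64, 77 and 59 counts in T47D-TR and 106, 114 and 105 in T47D (log2 fold change -0.67, edgeR adjusted p = 0.00092). ACTA2, the smooth muscle actin gene, was higher, with 41, 49 and 52 counts in T47D-TR and 23, 28 and 29 in T47D (0.86, edgeR adjusted p = 0.0047). COL1A2, DCN and PDGFRA were at 0 in every T47D library, COL3A1 had at most 1 count there and THY1 had 2, 4 and 3. The part of these markers in the LUM values was not tested. COL1A2, whose product joins that of COL1A1 in type I collagen, had 0, 0 and 22 counts in T47D-TR, and COL3A1 had 3, 1 and 37, so that 1 library carried almost all of them. It is the library with the high SPARC and DCN counts. THY1 and PDGFRA, which mark fibroblasts, had 1 and 2 counts there. The immunoglobulin genes IGHG1, IGK and IGKC and the keratin genes KRT13, KRT4, KRT6A and KRT14 were also found almost only in that library. This did not hold for every such keratin gene. KRT5 had 35, 25 and 33 counts in T47D-TR and 14, 40 and 15 in T47D, and KRT17 had 278, 253 and 166 in T47D-TR and 91, 93 and 90 in T47D. Whether the transcripts found almost only in 1 library and the 19 SPARC counts came from the T47D-TR cells was not tested.

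**Figure D2:**
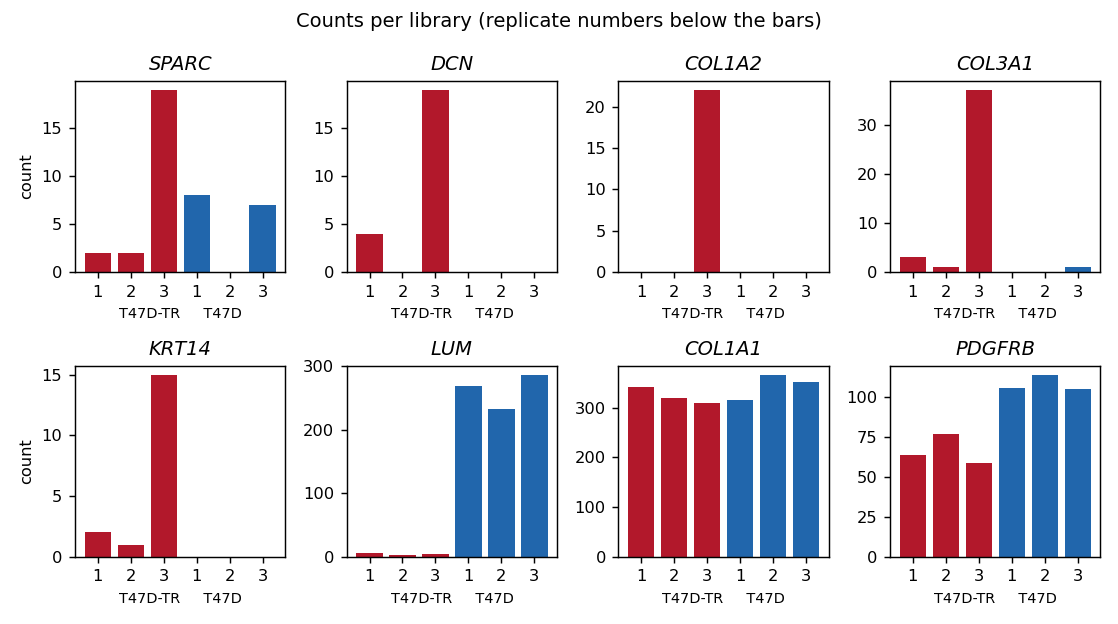
Counts per library, on linear axes that start at 0, for SPARC, LUM, the basal keratin gene KRT14 and fibroblast markers, with T47D-TR replicates 1 to 3 in red on the left and T47D replicates 1 to 3 in blue on the right. SPARC, DCN, COL1A2, COL3A1 and KRT14 were highest in T47D-TR replicate 3, whereas LUM and PDGFRB were higher in all T47D libraries and COL1A1 overlapped.

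Levels of different genes were compared per length, as CPM per kb of merged GENCODE exons. In T47D-TR the order was FBLN1 (37.0 ± 3.42), THBS1 (11 ± 3.26), FN1 (3.19 ± 0.0835) and TNC (1.5 ± 0.0781), with no overlap between libraries of neighbours in that order. SPARC (0.0918 ± 0.122) and LUM (0.0842 ± 0.029) came last and overlapped. In T47D it was THBS1 (21.5 ± 0.721), FBLN1 (13.3 ± 0.369), LUM (4.62 ± 0.601), TNC (0.363 ± 0.0259), FN1 (0.30 ± 0.0359) and SPARC (0.0556 ± 0.0485). TNC and FN1 were close there, the lowest TNC library at 0.334 and the highest FN1 library at 0.33 CPM per kb. With the length of the longest coding transcript, FBLN1 came above THBS1 in T47D (33.3 ± 0.928 against 25.3 ± 0.849 CPM per kb) and FN1 above TNC (0.583 ± 0.0699 against 0.458 ± 0.0326), so these pairs have no order that holds for both lengths. Among 13528 tested genes with a length, 63.2% lay above FN1 in T47D-TR and 92.4% in T47D, while 98.6% lay above LUM in T47D-TR and 52.1% in T47D.

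**Figure D3:**
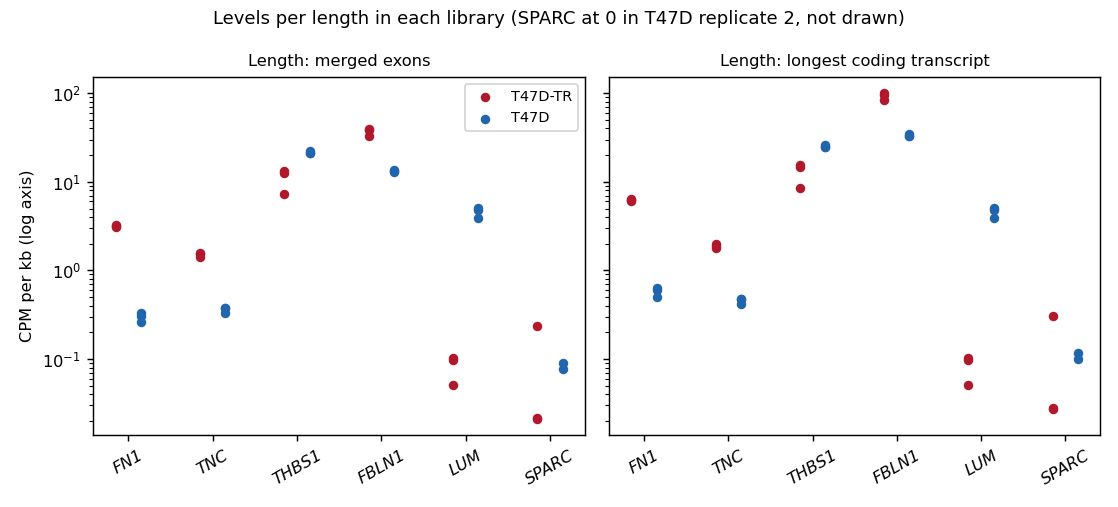
CPM per kb on a log axis for each gene and library, with T47D-TR in red to the left of T47D in blue, for length as merged exons (left) and as the longest coding transcript (right). FBLN1 was highest in T47D-TR on both scales, and LUM averaged 0.0842 CPM per kb in T47D-TR against 4.62 in T47D. The T47D library with SPARC at 0 is not drawn.

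The genes whose profile was most like that of each gene were found as the smallest root mean square difference of centred log2 CPM over the 6 libraries. For FN1 these were C11orf86 (0.102 on the log2 scale), with 47 ± 0.71 CPM in T47D-TR and 5.03 ± 0.506 CPM in T47D, and LOC105376382 (0.126). For TNC they were TRIOBP (0.059) and DOCK11 (0.060), and for FBLN1 RTTN (0.054) and EFNB1 (0.055). For THBS1, UCA1 (0.086) was among them, with 30.7, 34.2 and 16.9 CPM in T47D-TR and 50.9, 50 and 49.2 CPM in T47D. Its low value in T47D-TR replicate 3 follows from the choice by profile and is no separate observation. For LUM they were FAM127C (0.168) and RAPGEF5 (0.272), which was at 0 in every T47D-TR library and at 4.95 ± 0.125 CPM in T47D. Neither remained among the closest to LUM with a prior count of 0.5 in place of 2, so the likeness rests on that setting. 

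The nearest tested genes on the chromosome, taken up after results were known, went with their neighbour in some places and against it in others. Next to FN1, the purine synthesis gene ATIC (10.7 kb away) had a log2 fold change of -0.13 (edgeR adjusted p = 0.021, and 0.054 to 0.061 without T47D-TR replicate 1 or any 1 T47D library) and MREG one of -0.63 (edgeR adjusted p = 0.00025). Beside FBLN1, RIBC2 and LINC01589 rose by 1.99 and 1.12 (edgeR adjusted p = 0.00017 and 0.017). The LINC01589 call was lost with DESeq2 (adjusted p = 0.11) and without T47D replicate 2 or 3 (edgeR adjusted p = 0.06 and 0.066), and neither neighbour of THBS1 was called. Beside SPARC, SLC36A1 had a log2 fold change of -0.21 (edgeR adjusted p = 0.026, and 0.061 to 0.11 without T47D-TR replicate 1 or T47D replicate 1 or 3, and 0.064 with DESeq2), and ATOX1 one of -0.14 (edgeR adjusted p = 0.16, and 0.013 without T47D-TR replicate 3). Beside LUM, ATP2B1 (1393 kb away) and BTG1 (1028 kb away) rose, with log2 fold changes of 1.03 and 1.63 (edgeR adjusted p = 4.7e-09 and 1.8e-09). On both sides of TNC the nearest tested genes rose too: TNFSF15, a TNF family cytokine gene 213 kb away, by 3.19, and PAPPA, the gene of a metalloprotease that cuts IGF-binding proteins 1036 kb away, by 5.56, with 19.4 ± 1.65 CPM in T47D-TR and 0.407 ± 0.0909 CPM in T47D (edgeR adjusted p = 6.9e-06 and 9.6e-11).

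Relatives of these genes were mostly higher in T47D-TR. This list and the lists that follow were chosen with earlier results of these data known. Of 34 relatives listed (tenascins, thrombospondins, fibulins, SPARC family and small leucine-rich proteoglycans), 22 were in the table and 13 were tested. Among those, 8 rose and 2 fell, so that 76.9% were called, where 63.0% of all tested genes were (32.5% higher, 30.5% lower). Their median log2 fold change was 0.88, beside 0.002 for all tested genes. SPOCK1, which encodes the SPARC-related proteoglycan testican-1, rose to 176 ± 10.5 CPM in T47D-TR, against 41.2 ± 1.32 CPM in T47D (log2 fold change 2.1, edgeR adjusted p = 3.5e-11), and SMOC1, another SPARC-related gene, to 105 ± 9.67 CPM, against 32.4 ± 1.18 CPM (1.70, edgeR adjusted p = 1e-09). The fibulin gene EFEMP2, near the low end of the tested range, rose, with 1.12 ± 0.137 CPM in T47D-TR and 0.424 ± 0.19 CPM in T47D (edgeR adjusted p = 0.0037). FBLN5, the fibulin-5 gene, fell to 0.456 ± 0.198 CPM in T47D-TR, against 1.06 ± 0.389 CPM in T47D (-1.18, edgeR adjusted p = 0.021), a call lost with DESeq2 (adjusted p = 0.051), without T47D-TR replicate 3 (edgeR adjusted p = 0.051) and without T47D replicate 1 (edgeR adjusted p = 0.12).

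Among other matrix glycoproteins, MFAP2, LTBP1 and FBN1 rose most. Of 52 listed, 45 were in the table and 36 were tested. Of the tested, 23 rose and 3 fell, and the median was 0.82. Called were 72.2%, where 63.0% of all tested genes were (32.5% higher, 30.5% lower). MFAP2, which encodes a microfibril component, had 7.20 ± 0.917 CPM in T47D-TR and 0.474 ± 0.179 CPM in T47D (3.9, edgeR adjusted p = 3.5e-08). LTBP1, the gene of a protein that tethers latent TGF-beta to the matrix, had 97.2 ± 5.28 CPM in T47D-TR and 15.8 ± 0.816 CPM in T47D (2.62, edgeR adjusted p = 1.6e-11). FBN1, which encodes the microfibril protein fibrillin-1, had 317 ± 59.4 CPM in T47D-TR and 51.9 ± 1.77 CPM in T47D (2.61, edgeR adjusted p = 1.1e-09). FRAS1, the gene of a basement membrane protein, fell most, to 12, 17 and 8 counts in T47D-TR, against 332, 337 and 348 in T47D (-4.74, edgeR adjusted p = 1.9e-10).

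Of the receptors for these glycoproteins, most of those tested rose. Of 22 listed, 17 were in the table and 14 were tested. Of the tested, 11 rose and 1 fell (3 fell with voom and quantile normalization), and the median was 0.79. Called were 85.7%, where 63.0% of all tested genes were (32.5% higher, 30.5% lower). ITGA5, which encodes the alpha subunit of the classical fibronectin receptor, had 497 ± 33.5 CPM in T47D-TR and 137 ± 2.28 CPM in T47D (1.86, edgeR adjusted p = 3.8e-11). Its partner ITGB1, named after its value was seen, had 1158 ± 166 CPM in T47D-TR and 484 ± 14.5 CPM in T47D (1.26, edgeR adjusted p = 3.6e-08). ITGA2, a collagen receptor subunit gene, had 299 ± 28.2 CPM in T47D-TR and 40.6 ± 1.26 CPM in T47D (2.88, edgeR adjusted p = 1.1e-11), and LRP1, an endocytic receptor gene that takes up thrombospondin-1, had 187 ± 5.78 CPM in T47D-TR and 35.0 ± 1.70 CPM in T47D (2.42, edgeR adjusted p = 8.2e-12). CD47, a thrombospondin-1 receptor gene, fell by 0.18 on the log2 scale (edgeR adjusted p = 0.013, and 0.082 without T47D replicate 2). ITGA7 and STAB1 were not called (log2 fold change -0.51 and -0.62, edgeR adjusted p = 0.1 and 0.074), and ITGB3 and ITGA2B were not tested. CD36, another thrombospondin-1 receptor gene, had too few counts to be tested, with 2, 8 and 1 counts in T47D-TR and 1, 3 and 0 in T47D.

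Focal adhesion components moved both ways. All 30 were tested, 12 rose and 13 fell, and the median was -0.05. Called were 83.3%, where 63.0% of all tested genes were (32.5% higher, 30.5% lower). TNS4, a tensin gene, stood apart at 151 ± 26.7 CPM in T47D-TR and 10.1 ± 0.827 CPM in T47D (3.89, edgeR adjusted p = 1.3e-10). The kindlin gene FERMT3, near the low end of the tested range, fell most, with 0.583 ± 0.245 CPM in T47D-TR and 1.37 ± 0.191 CPM in T47D (-1.25, edgeR adjusted p = 0.0057). PARVA fell by 0.75 on the log2 scale (edgeR adjusted p = 6.1e-08). The integrin-activating kindlin genes FERMT1 and FERMT2 fell by 0.64 and 0.63 (edgeR adjusted p = 1.1e-06 and 3.8e-07).

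Genes of matrix cross-linking and turnover were mostly higher. Of 40 listed, 35 were in the table and 31 were tested. Of the tested, 22 rose and 4 fell, and the median was 0.93. Called were 83.9%, where 63.0% of all tested genes were (32.5% higher, 30.5% lower). DPP4, a membrane protease gene, had 11.8 ± 3.31 CPM in T47D-TR and 0.388 ± 0.0856 CPM in T47D (4.91, edgeR adjusted p = 3e-08). It had only 9, 7 and 6 counts in T47D and passed the filter through T47D-TR alone. LOXL1, a cross-linking enzyme gene, had 16.3 ± 6.15 CPM in T47D-TR and 2.20 ± 0.289 CPM in T47D (2.89, edgeR adjusted p = 1.8e-06), and PLAT, the tissue plasminogen activator gene, 39.4 ± 3.58 and 5.62 ± 0.838 CPM (2.81, edgeR adjusted p = 6.5e-10). Of the 4 that fell, TLL1, a procollagen-processing protease gene, and HTRA3, a secreted serine protease gene, fell by 3.47 and 2.90 on the log2 scale (edgeR adjusted p = 9.9e-07 and 1.6e-08). TLL1 had only 8, 3 and 5 counts in T47D-TR and passed the filter through T47D alone.

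Regulators known to act on matrix genes moved both ways. All 20 were tested, 13 rose and 4 fell, and the median was 0.31. Called were 85.0%, where 63.0% of all tested genes were (32.5% higher, 30.5% lower). WWTR1, the gene of the YAP-related coactivator TAZ, had 109 ± 2.57 CPM in T47D-TR and 54.5 ± 2.71 CPM in T47D (0.99, edgeR adjusted p = 9.6e-09), and the TGF-beta signal transducer gene SMAD2 had 83.1 ± 8.52 and 49.7 ± 2.56 CPM (0.74, edgeR adjusted p = 2.3e-06). Of the TGF-beta receptor genes, TGFBR2 and TGFBR3 rose by 0.81 and 0.82 on the log2 scale (edgeR adjusted p = 1.8e-06 and 0.00013), and TGFBR1 fell by 1.08 (edgeR adjusted p = 4.6e-07). Of the TEAD factor genes, TEAD4 fell by 0.67 (edgeR adjusted p = 2.3e-07), while TEAD1, TEAD2 and TEAD3 rose by 0.26, 0.38 and 0.34 (edgeR adjusted p = 0.0037, 0.00028 and 0.0057). Their coactivator gene YAP1 rose by 0.38 (edgeR adjusted p = 2.7e-05). The TEAD1 to TEAD3 and YAP1 values were added after they were seen.

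**Figure D4:**
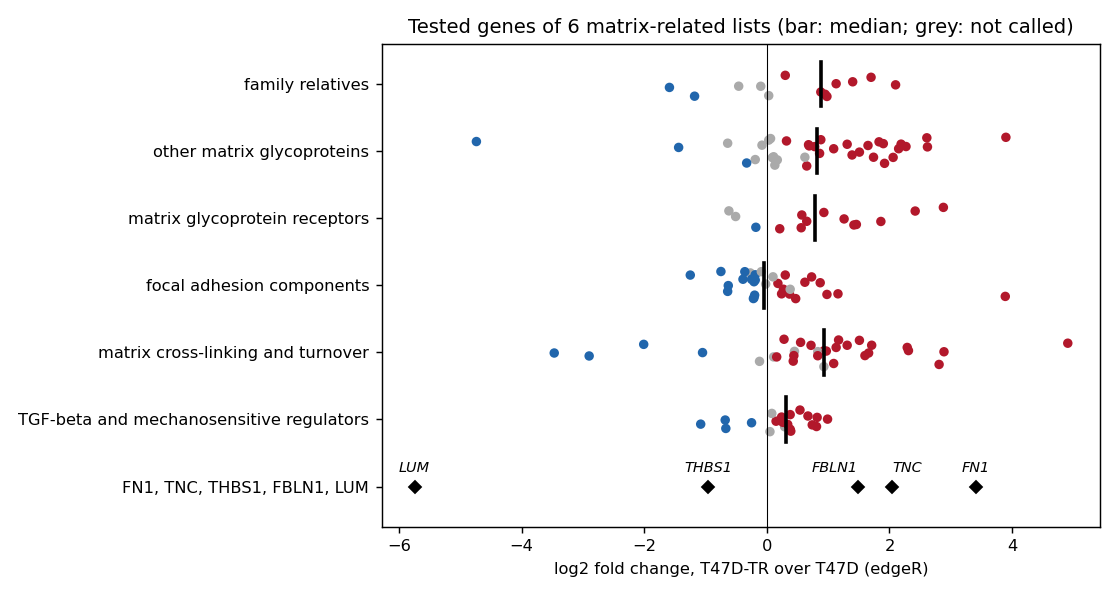
Log2 fold change (T47D-TR over T47D) of each tested gene of the 6 lists, with genes called higher in red, called lower in blue and not called in grey, black bars at the list medians and black diamonds for the 5 tested genes described first. Medians were 0.79 to 0.93 for relatives, other glycoproteins, receptors and turnover genes, 0.31 for regulators and -0.05 for focal adhesion components.

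Across the other settings tried, FN1, TNC and FBLN1 stayed higher and THBS1 and LUM lower in T47D-TR. With 1 library left out at a time, the log2 fold change ranged from 3.32 to 3.48 for FN1, from 1.98 to 2.08 for TNC, from 1.43 to 1.55 for FBLN1, from -1.12 to -0.74 for THBS1 and from -5.94 to -5.48 for LUM. In the authors' deposited table, whose means come from their own scaling, the ratio of means was 10.6 for FN1, 4.1 for TNC, 2.78 for FBLN1, 0.509 for THBS1 and 0.0181 for LUM.

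**Figure D5:**
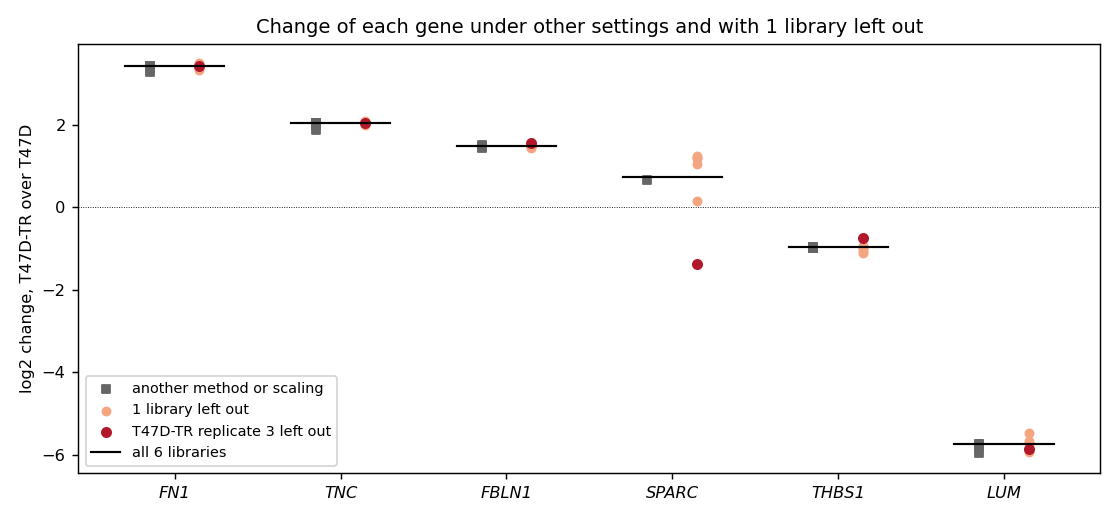
Log2 change (T47D-TR over T47D) of each gene with all 6 libraries (black line), under other methods and scalings (grey squares) and with 1 library left out (orange, or red where it is T47D-TR replicate 3). SPARC turned to -1.38 without that library, and the other 5 genes kept their side of 0.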

How the data were processed

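The submitters' processing notes name HISAT2 2.1.0, the GRCh38 build and DESeq. Which counter and annotation were used, and whether strand was, is not stated in these sources. The authors deposited whole-number counts per gene and library, although the table is named for FPKM. Their table, per the file headers, also holds a mean per group. The authors deposited this signal as means that, from the values, are those of counts scaled per library, with a ratio of those means, its log2, and a p-value with its adjusted value. The deposited ratio is given for the 5 tested genes, and the deposited log2 and p-value columns are not reported.

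Libraries were grouped by title. Counts were compared between T47D-TR and T47D with edgeR 4.0.16 in R 4.3.3 (TMM scaling, filterByExpr at a minimum count of 10 and a total of 15, glmQLFit and glmQLFTest, 2-sided; genes with a Benjamini-Hochberg adjusted p below 0.05 over all tested genes count as called). The SE of a log2 fold change comes from the spread between libraries in log2 CPM (prior count 2), which narrows it for low genes. Positions and lengths are from GENCODE 29, promoters from RefSeq. The procedure was run on simulated data in which few genes changed and both groups had the same spread. That run therefore does not cover the many changes and the unequal spread of these libraries.

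The 6 genes and all lists were chosen with earlier results of these data known. From each list of non-marker genes, up to 4 called genes at each end with groups that do not overlap could be named, and others are marked where they stand. The alternatives were DESeq2 1.42.0, RLE scaling, library size alone, voom with quantile normalization (limma 3.58.1), no filter, a replicate block and leaving out each library. Same-numbered libraries did not deviate together (r across genes -0.021 to -0.005). A gene among those most like THBS1 is not reported here.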

Additional observations from a re-analysis of the deposited data

How the results depend on the processing

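Calls over all genes numbered 5186 higher and 4867 lower, and each stayed within 1.5 times of that in every setting tried, but the balance turned with the scaling: 51.6% of calls were higher, against 43.0% with voom and quantile normalization (4361 higher, 5789 lower, median of all genes moved by -0.11) and 47.7% with library size alone (4827 higher, 5298 lower). With voom and quantile normalization TNC moved to 1.86 and the receptors called lower numbered 3, against 1. With DESeq2 the relatives called lower numbered 1, against 2, and without 1 library 1 (without T47D replicate 1) to 2. The receptors called lower numbered 0 (without T47D replicate 2) to 2 (without T47D-TR replicate 3). The log2 ratio of SPARC ranged from -1.38 without T47D-TR replicate 3 to 1.24 without T47D replicate 1. The uncalled neighbours of THBS1 changed sign, GPR176 to -0.06 with voom and -0.01 to 0.26 without 1 library, against 0.13, and RASGRP1 to -0.23 to 0.11 without 1 library, against -0.05. The cause was not tested. Of 54 named or neighbouring genes, 8 lost and 1 gained a call in some setting. A replicate block gave 5127 higher and 4827 lower and left the fold changes of the 5 tested genes at 3.41 (FN1), 2.04 (TNC), 1.48 (FBLN1), -1.0 (THBS1) and -5.75 (LUM); the numbers are not known to pair the libraries. With a prior count of 0.5, 1 of the 2 most alike genes remained for FN1 and TNC and 0 for LUM. Depth limits SPARC in all libraries and LUM in T47D-TR.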

Other observations

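T47D-TR replicate 3, the library with 19 of the 38 SPARC counts, held other transcripts that the remaining libraries hardly held. With at least 10 counts in 1 library and at most 5 over the other 5 together, a rule set after the data were seen, 14 genes were found for T47D-TR replicate 3, 0 and 1 for T47D-TR replicates 1 and 2, and 0, 1 and 0 for T47D replicates 1, 2 and 3. Beside COL1A2, COL3A1 and DCN they were the immunoglobulin genes IGHG1 (28 counts, and 0 elsewhere), IGK (11) and IGKC (10), the keratin genes KRT13 (35), KRT4 (25), KRT6A (17) and KRT14 (15), the cornified envelope gene SPRR3 (12), the smooth muscle genes ACTG2 (10) and CNN1 (11), and LOC105373631 (10). Whether they came from the T47D-TR cells or from another source was not tested, and the SPARC and DCN counts of that library carry the same doubt.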
